A study of Homo sapiens with 6 samples.

Results

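The YAP, TAZ and TEAD network comprised 10 genes grouped by their role, the coactivators YAP1 and WWTR1 (which encodes TAZ), the DNA-binding partners TEAD1, TEAD2, TEAD3 and TEAD4, the TEAD cofactors VGLL1 and VGLL3, the angiomotin AMOTL2 and the target gene ANKRD1. Members were taken by gene name from the deposited table of 35856 genes. In all, 9 of the 10 were listed there, and VGLL1 was not analysed here. RNA was sequenced from 6 libraries labelled as HCCLM3, an established human hepatocellular carcinoma cell line, with 3 libraries of cells that received a vector carrying the lncRNA LINC00862 (group LINC00862) and 3 libraries of the control cells (group NC). The labels name an empty vector as the only other transfection, so NC was read as the empty vector. Markers of cell identity differed by large factors between the groups, as given at the end, and a difference in cell stock or state cannot be told apart from the vector in any fold change below. The labels do not say whether the libraries of a group came from separate cultures, so the p-values measure the spread between libraries, which may be technical. Total counts lay between 58241123 and 68229070 per library.

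YAP and TAZ carry no DNA-binding domain of their own and act on genes through TEAD factors. In the Hippo cascade of the kinases MST and LATS, it is LATS that phosphorylates YAP and TAZ and holds them in the cytoplasm. In the liver this pathway is known as a control of organ size. The genes were compared by mRNA level only, and the phosphorylation and the location of YAP and TAZ were not measured. Levels are given as FPKM, a read level scaled to transcript length and library size, which may be compared between genes. Changes are log2 fold changes of LINC00862 against NC, fitted to the counts, with their standard error (SE).

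Of the 9 genes, 8 were lower in LINC00862 with an adjusted p under 0.05 by edgeR's quasi-likelihood test, 0 were higher, and TEAD2 did not pass. Among the 20741 genes tested, 64.2% were called in either direction, 29.8% lower and 34.4% higher. The FPKM of the same 8 genes did not overlap between the groups, all being lower in LINC00862, beside 36.6% of the tested genes that lay apart in that direction, 34.4% in the other and 71.1% in either. When the test asked for more than a 2-fold change, 6 of the 9 were called lower and 0 higher, compared with 15.4% lower, 23.2% higher and 38.6% either way among the tested genes. The median log2 fold change of the 9 genes was -1.95, beside 0.11 over all tested genes. In bulk RNA, fewer cells of a type and less RNA per cell cannot be told apart.

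**Figure D1:**
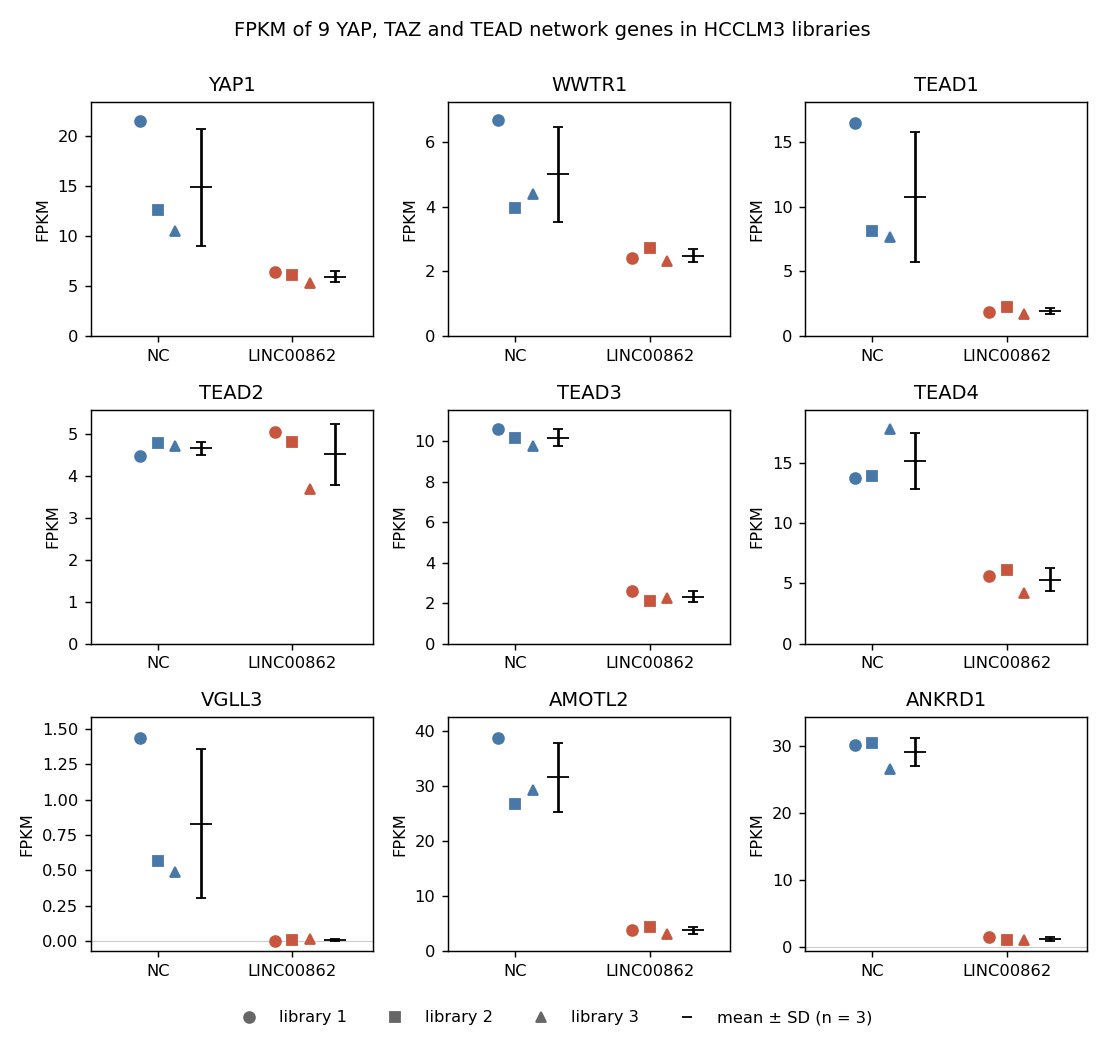
FPKM of each of the 9 genes (vertical axes, linear, 1 scale per gene) in the 3 NC libraries (blue) and the 3 LINC00862 libraries (red), with marker shapes for library numbers and black bars for the mean ± SD (n = 3). In 8 panels every NC library lies above every LINC00862 library, and in the TEAD2 panel the groups overlap.

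Both coactivators were lower in LINC00862. YAP1 (chromosome 11, 102110447 to 102233424, plus strand) had 21.5, 12.5 and 10.5 FPKM in the NC libraries 1, 2 and 3, and 6.38, 6.12 and 5.27 FPKM in the LINC00862 libraries 1, 2 and 3. NC library 1 was the highest, and the groups did not overlap. The fitted log2 fold change of YAP1 was -1.13 (SE 0.22, adjusted p = 0.00159, edgeR), a level 2.19-fold lower. WWTR1 (chromosome 3, 149517235 to 149736714, minus strand), the gene of the paralog TAZ, had 6.68, 3.95 and 4.39 FPKM in the NC libraries and 2.41, 2.71 and 2.33 FPKM in LINC00862, again without overlap. Its log2 fold change was -0.82 (SE 0.18, adjusted p = 0.00314, edgeR). Neither gene passed the test against a fold change of 2, with an adjusted p of 0.238 for YAP1 and 0.895 for WWTR1. The antisense gene WWTR1-AS1, which shares 795 exon bases with WWTR1, had 16 to 17 counts in NC and 78 to 166 in LINC00862, beside 1308 to 3694 for WWTR1.

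YAP1 remained the more abundant coactivator transcript in each library. The ratio of WWTR1 to YAP1 FPKM was 0.311, 0.315 and 0.417 in the NC libraries and 0.379, 0.442 and 0.442 in LINC00862. The groups overlapped in this ratio (exact two-sided permutation test of the log2 ratio, p = 0.2, adjusted p = 0.233 over the 7 composition values tested). Summed over both coactivators, NC had 19.8 ± 7.22 FPKM (SD, n = 3) and LINC00862 had 8.41 ± 0.697 FPKM (SD, n = 3), without overlap (exact permutation p = 0.1, adjusted p = 0.14). With 3 libraries in each group this test cannot go below 0.1. Without NC library 1 the difference in this sum shrank from -11.4 to -7.28 FPKM.

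The 4 TEAD factors share a DNA-binding domain and bind YAP and TAZ, yet their transcripts changed by unequal amounts. TEAD1 (chromosome 11, 12674421 to 12944737, plus strand) had 16.5, 8.08 and 7.62 FPKM in the NC libraries and 1.89, 2.21 and 1.69 FPKM in the LINC00862 libraries. NC library 1 stood above the other NC libraries, and all LINC00862 libraries lay below them. The log2 fold change of TEAD1 was -2.28 (SE 0.26, adjusted p = 6.54e-05, edgeR), 4.85-fold lower.

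TEAD3 (chromosome 6, 35473597 to 35497079, minus strand) had 10.6, 10.2 and 9.80 FPKM in the NC libraries and 2.63, 2.09 and 2.26 FPKM in the LINC00862 libraries. The NC libraries were tightly grouped, with a coefficient of variation of 3.94%, and the log2 fold change was -1.95 (SE 0.16, adjusted p = 8.66e-06, edgeR). TEAD4 (chromosome 12, 2959330 to 3040676, plus strand) had 13.7, 13.9 and 17.8 FPKM in the NC libraries and 5.62, 6.10 and 4.23 FPKM in LINC00862. Its groups did not overlap, and the log2 fold change was -1.35 (SE 0.19, adjusted p = 0.000215, edgeR).

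TEAD2 (chromosome 19, 49340595 to 49362457, minus strand) differed from its paralogs. It had 4.49, 4.79 and 4.71 FPKM in the NC libraries and 5.05, 4.81 and 3.69 FPKM in the LINC00862 libraries. LINC00862 library 3 was the lowest of the 6 and LINC00862 library 1 the highest, so the groups overlapped. The log2 fold change of TEAD2 was 0.12 (SE 0.17, 95% interval -0.27 to 0.51, adjusted p = 0.561, edgeR), and its sign depended on the scaling, with -0.04 when scaled by library size only and 0.33 under upper quartile scaling. Its exons share 319 bases with CD37 on the opposite strand, which had 30 to 107 counts in NC and 131 to 172 in LINC00862, beside 740 to 1153 for TEAD2.

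**Figure D2:**
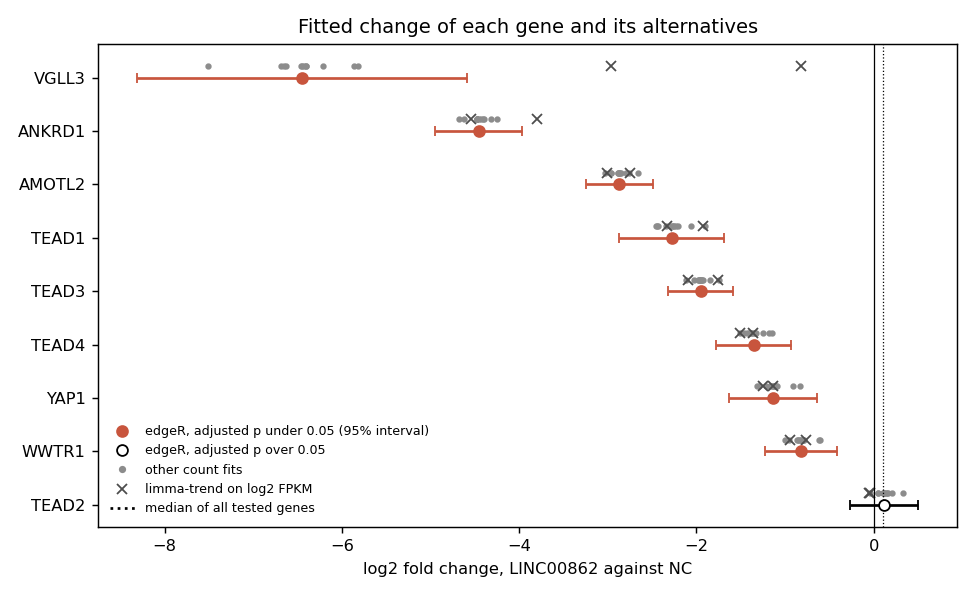
Log2 fold change of LINC00862 against NC (horizontal axis) for the 9 genes, with circles for the edgeR fit and bars for its 95% interval, grey dots for the other count fits and crosses for limma-trend on log2 FPKM. The interval of TEAD2 spans 0, those of the other 8 genes lie below it, and the crosses of VGLL3 lie far to the right of its count fits because the added pseudocount compresses low FPKM.

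Since FPKM is per length, the paralogs could be set against each other within a library, where a share does not depend on how libraries are scaled. Summed TEAD FPKM was 40.8 ± 4.23 (SD, n = 3) in NC and 14.1 ± 1.92 (SD, n = 3) in LINC00862, without overlap (exact permutation p = 0.1, adjusted p = 0.14). TEAD2 made up 9.90%, 13.0% and 11.8% of that sum in the NC libraries and 33.3%, 31.7% and 31.1% in LINC00862. Its share was thus higher in each LINC00862 library than in each NC library, at 11.5% ± 1.54 in NC and 32.0% ± 1.12 in LINC00862 (SD, n = 3, exact permutation p = 0.1, adjusted p = 0.14).

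The share of TEAD1 was 36.4%, 21.8% and 19.1% in the NC libraries and 12.5%, 14.5% and 14.2% in LINC00862. That of TEAD3 was 25.1% ± 2.14 in NC and 16.7% ± 2.72 in LINC00862 (SD, n = 3), and both shares were lower in LINC00862 without overlap (exact permutation p = 0.1, adjusted p = 0.14 for each). Without NC library 1 the difference in the TEAD1 share moved from -12.0 to -6.72 percentage points, and it was -18.4 when CPM replaced FPKM. The difference in the TEAD3 share moved from -8.45 to -3.13 percentage points with CPM (exact permutation p = 0.3). The share of TEAD4 was 30.3%, 37.7% and 44.6% in the NC libraries and 37.0%, 40.1% and 35.6% in LINC00862, so the groups overlapped (exact permutation p = 1) and the NC libraries spread widely. No share could pass a threshold of 0.05 in this design.

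**Figure D3:**
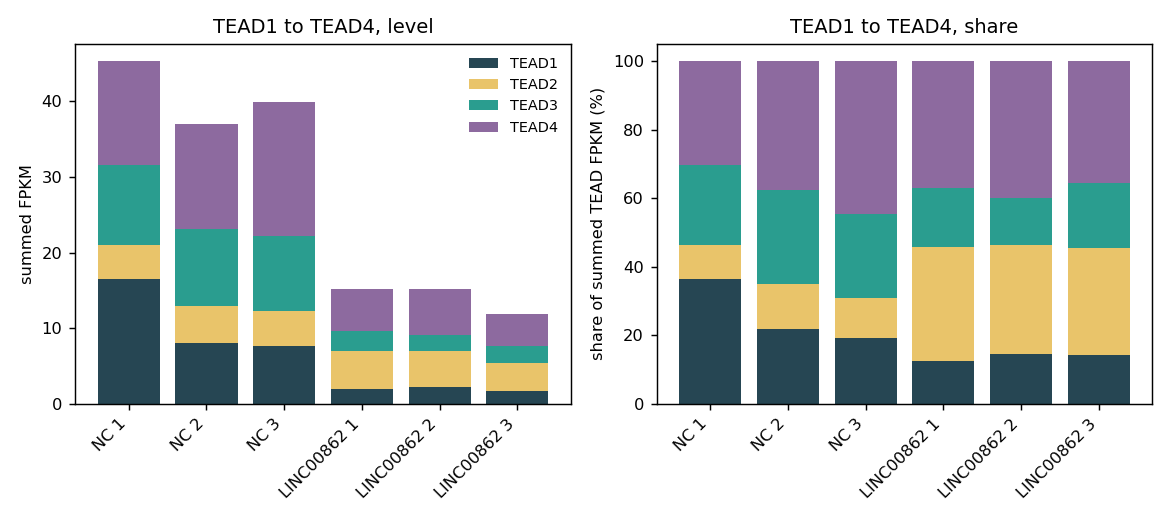
Summed FPKM of TEAD1 to TEAD4 (left) and the share of each in that sum in percent (right), stacked for each of the 6 libraries. The summed level lies between 37.0 and 45.3 FPKM in NC and between 11.9 and 15.2 FPKM in LINC00862, while the TEAD2 band widens from a mean of 11.5% to 32.0% of the sum.

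VGLL3 (chromosome 3, 86876388 to 86991149, minus strand), a vestigial-like protein that binds TEAD factors at the surface used by YAP and TAZ, was the rarest of the 9 transcripts in both groups and had the largest fitted change. Its counts were 1212, 472 and 414 in the NC libraries against 0, 7 and 14 in LINC00862. In FPKM these were 1.44, 0.566 and 0.486 in NC and 0, 0.00821 and 0.0159 in LINC00862. LINC00862 library 1 held no read of it, where counting error alone allows up to 3. The log2 fold change was -6.45 (SE 0.82, adjusted p = 0.000129, edgeR). It rested on few reads, at -7.52 without LINC00862 library 3 and -5.81 without LINC00862 library 1.

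AMOTL2 and ANKRD1 were the most abundant of the 9 in NC, and both are known as genes that YAP and TEAD switch on. AMOTL2 (chromosome 3, 134355874 to 134374594, minus strand) encodes an angiomotin, which in turn binds YAP and TAZ and keeps them at junctions and in the cytoplasm. It had 38.7, 26.7 and 29.3 FPKM in the NC libraries and 3.81, 4.49 and 3.17 FPKM in LINC00862. All LINC00862 libraries lay far below the lowest NC library, with a log2 fold change of -2.87 (SE 0.17, adjusted p = 1.09e-06, edgeR), 7.30-fold lower.

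ANKRD1 (chromosome 10, 90912096 to 90921087, minus strand), an ankyrin repeat protein first known from muscle and a widely used readout of YAP activity, had 30.1, 30.5 and 26.7 FPKM in the NC libraries. With LINC00862 the values were 1.53, 0.979 and 1.01 FPKM. The groups did not overlap, and the NC libraries varied by a coefficient of variation of only 7.26%. The log2 fold change was -4.46 (SE 0.22, adjusted p = 3.77e-07, edgeR), 21.9-fold lower in the fit to counts. By mean FPKM, which is scaled otherwise, LINC00862 kept 4.02% of the NC level.

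Promoters were read from RefSeq on GRCh38.p14 for 8 of the 10 genes, all but TEAD1 and TEAD4, as the 250 bases before each annotated start. They were searched for CATTCC, the core that TEAD factors recognise, on both strands (GGAATG on the other). Of the 11 starts of these 8 genes, 4 held it, belonging to YAP1, VGLL1, AMOTL2 and ANKRD1, against 11.9% of all 35116 promoters in the table. The 3 among them that were measured are shown 5′ to 3′ on the strand of the gene, with the motif in capitals.
ANKRD1, chr10:90921088-90921337, minus strand: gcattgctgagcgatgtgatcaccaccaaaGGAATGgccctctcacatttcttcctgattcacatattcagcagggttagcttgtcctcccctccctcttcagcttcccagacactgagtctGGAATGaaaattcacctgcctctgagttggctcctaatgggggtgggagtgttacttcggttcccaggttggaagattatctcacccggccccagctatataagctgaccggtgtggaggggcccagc
AMOTL2, second listed start, chr3:134374448-134374697, minus strand: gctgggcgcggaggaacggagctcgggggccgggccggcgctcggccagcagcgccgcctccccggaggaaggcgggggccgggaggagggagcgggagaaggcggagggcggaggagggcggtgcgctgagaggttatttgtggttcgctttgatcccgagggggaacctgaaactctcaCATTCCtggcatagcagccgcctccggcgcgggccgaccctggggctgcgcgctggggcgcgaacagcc
YAP1, chr11:102110197-102110446, plus strand: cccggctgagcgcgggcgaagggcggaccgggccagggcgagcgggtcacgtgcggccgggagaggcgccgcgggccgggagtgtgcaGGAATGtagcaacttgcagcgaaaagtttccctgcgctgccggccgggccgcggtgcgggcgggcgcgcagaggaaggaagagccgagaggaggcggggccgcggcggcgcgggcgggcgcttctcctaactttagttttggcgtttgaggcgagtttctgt
In ANKRD1 the motif began at positions -220 and -128 from the start, in AMOTL2 at -69 and in YAP1 at -162. A match describes letters in these windows and shows no binding, and the other annotated start of AMOTL2 and those of WWTR1, TEAD2, TEAD3 and VGLL3 held none in theirs. Of these genes without a match, WWTR1, TEAD3 and VGLL3 were also lower in LINC00862.

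The order of the levels differed between the groups. In NC, AMOTL2 (31.6 FPKM on average) and ANKRD1 (29.1) led with overlapping ranges, followed apart from them by TEAD4 (15.2), YAP1 (14.8), TEAD1 (10.7) and TEAD3 (10.2), each of which overlapped the next. WWTR1 (5.00) and TEAD2 (4.66) came after a gap and overlapped each other, and VGLL3 (0.829) was the lowest. In LINC00862, YAP1 (5.92), TEAD4 (5.31), TEAD2 (4.52) and AMOTL2 (3.82) overlapped from each to the next at the top. WWTR1 (2.48), TEAD3 (2.33) and TEAD1 (1.93) formed the next overlapping run, and ANKRD1 (1.17) and VGLL3 (0.00804) stood apart below it. ANKRD1 thus moved from the second place to the eighth, and TEAD2 from the eighth to the third.

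The 9 genes also differed in how far the NC libraries spread. By CPM, TMM-scaled counts relative to library size, NC library 1 held 1.67 times the mean of the other NC libraries for YAP1, 1.44 times for WWTR1, 1.88 times for TEAD1 and 2.44 times for VGLL3. For these 4 genes the log2 difference lay at the percentiles 95.2, 88.0, 97.9 and 99.3 of all tested genes. TEAD2, TEAD3, TEAD4 and ANKRD1 were lower in NC library 1 than in the mean of the others, at ratios between 0.776 and 0.951. Without NC library 1, the log2 fold changes were -0.83 for YAP1, -0.62 for WWTR1, -1.90 for TEAD1 and -5.87 for VGLL3, and the number of network genes called lower was still 8. Among all 21811 genes tested in that fit, 6448 were called lower and 14285 in either direction.

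**Figure D4:**
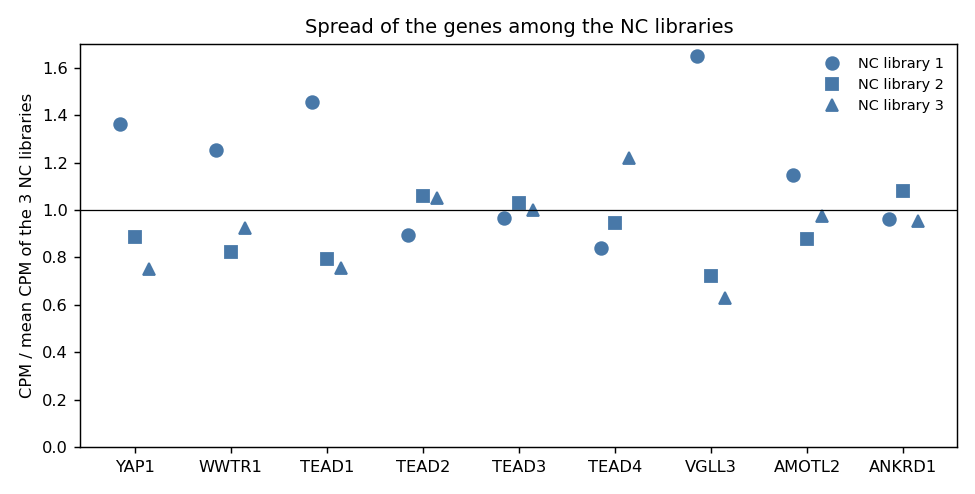
CPM of each of the 9 genes in the 3 NC libraries (marker shapes), divided by the mean of the 3 (vertical axis, a ratio from 0). NC library 1 lies above the line at 1 for YAP1, WWTR1, TEAD1, VGLL3 and AMOTL2 and below it for TEAD2, TEAD3, TEAD4 and ANKRD1.

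Other genes of the pathway were taken from lists by role. In the VGLL family, VGLL2 had counts of 88 in each NC library and 0, 0 and 9 in LINC00862 (adjusted p = 0.00343, edgeR). VGLL4, which competes with YAP for TEAD factors, had 1775, 1129 and 836 counts in NC and 2163, 2065 and 1304 in LINC00862. The fitted change was 0.66 on the log2 scale (adjusted p = 0.0402, edgeR), with overlapping FPKM, and 5 of 14 alternative settings kept that call. All 3 angiomotins, AMOTL2 of the network among them, were called lower, beside 29.8% lower and 64.2% either way among all tested genes. AMOTL1 had a log2 fold change of -3.27 (SE 0.30, adjusted p = 1.75e-05), and AMOT had 286, 150 and 139 counts in NC against 10, 0 and 0 in LINC00862 (adjusted p = 0.000599, both edgeR).

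In the Hippo kinase core, 5 of 7 genes were called lower and 0 higher, at a median log2 fold change of -1.31, beside 29.8% lower, 34.4% higher and 64.2% either way among all tested genes. The kinase LATS2 (-2.02, SE 0.20, adjusted p = 2.62e-05), its paralog LATS1 (-1.43, SE 0.22, adjusted p = 0.000383) and the LATS cofactor MOB1B (-1.62, SE 0.23, adjusted p = 0.000265) had the largest falls by edgeR. STK3, the gene of MST2, and the scaffold SAV1 did not pass, with log2 fold changes of -0.27 (adjusted p = 0.133) and 0.16 (adjusted p = 0.355, edgeR). MOB1A, another of the 5, lost its call in 5 of 14 alternatives.

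Of 27 upstream regulators, 12 were called lower, 1 higher and 14 not, at a median of -0.44. The share called either way was thus below the 64.2% of all tested genes, and that called lower above their 29.8%. WWC1, counted among the 12 (adjusted p = 0.0425, edgeR), was called in 4 of 14 alternatives. The protocadherin FAT4 (-5.86), the LIM protein WTIP (-3.67) and the FERM protein FRMD6 (-3.60) had the largest falls. NF2 (merlin), which brings LATS kinases to the membrane, fell to 2.93 FPKM from 15.3 (log2 fold change -2.22, SE 0.17, adjusted p = 6.22e-06, edgeR). MAP4K3, a kinase of the family that can phosphorylate LATS, was the gene that rose (1.16, SE 0.17, adjusted p = 0.000318, edgeR).

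A list of 22 genes used as YAP and TAZ targets includes AMOTL2 and ANKRD1. It also holds LATS2 of the kinase core and PTPN14 of the upstream regulators, which are thus counted in both places. Of its 21 tested members, 17 were called lower and 0 higher, beside 29.8% lower and 64.2% either way among all tested genes. The median log2 fold change of these 21 was -2.37, and it was -2.22 for the 19 outside the network, of which 15 were called lower. The receptor tyrosine kinase AXL (-8.14), the secreted protein CCDC80 (-6.68) and CCN1 (-6.16), a matricellular protein and classical YAP target, had the largest falls. CCN1 had 348.3 FPKM on average in NC and 4.32 in LINC00862, and its paralog CCN2 had 170.2 and 7.65 (log2 fold change -4.30, SE 0.15, adjusted p = 7.29e-08, edgeR). The 4 genes that did not pass were IGFBP3 (0.05), GADD45A (-0.16), CRIM1 (-0.59) and DOCK5 (-0.47), named after their values were seen, and FOXF2 was below the filter on low counts.

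AP-1 factors, which often bind beside TEAD factors at enhancers, did not move one way. FOSL1 (-4.98) and JUN (-1.78) fell, FOS (2.82), FOSL2 (1.94), JUNB (1.37) and FOSB (1.33) rose, and JUND (-0.26, adjusted p = 0.373) did not pass, all by edgeR. FOSL1 had 57.1 FPKM on average in NC and 1.58 in LINC00862.

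**Figure D5:**
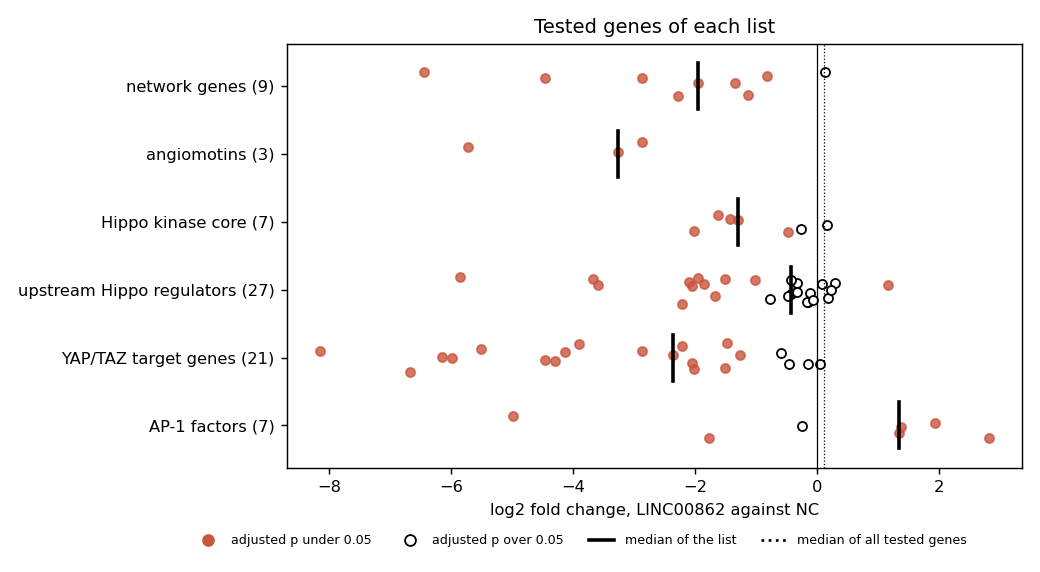
Log2 fold change of LINC00862 against NC (horizontal axis) for every tested gene of the lists on the vertical axis (number tested in parentheses), with filled points for an adjusted p under 0.05, open points for the others, and black bars for list medians. The bar of the YAP and TAZ targets lies at -2.37 and that of the kinase core at -1.31, while the AP-1 factors lie on both sides of 0.

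Markers of cell identity moved with the same groups, and their part in the values above was not tested. Among all tested genes, 29.8% were called lower, 34.4% higher and 64.2% either way. LINC00862 itself, read as a check of the labels, had 6 to 21 counts in the NC libraries and 76 to 145 in the LINC00862 libraries (log2 fold change 3.22, adjusted p = 0.000583, edgeR). Its level was low, at 0.0507 FPKM on average in NC and 0.449 in LINC00862, and its change lay at percentile 85.5 of all tested genes. Whether the vector gave this rise was not tested. Of 10 mesenchymal markers, 8 were called lower and 1 higher, and their summed FPKM was 611.5 to 669.1 in NC and 15.3 to 19.8 in LINC00862. Of 9 epithelial markers tested, 8 were called higher and 0 lower, with summed FPKM of 56.8 to 86.1 and 424.4 to 529.8. Among those called were the mesenchymal markers THY1 (-8.50) and CDH2 (-7.43) and the epithelial markers ESRP1 (8.55) and EPCAM (8.34), by log2 fold change. The mesenchymal marker that rose was COL1A1 (2.32), and COL1A2 (-0.21, adjusted p = 0.584, edgeR) did not pass. VIM, at 539 FPKM on average in NC, made up most of the mesenchymal sum there. The epithelial marker that did not pass was KRT7 (0.415, adjusted p = 0.108, edgeR). It made up most of the NC sum, at 68.6 FPKM on average, and had 82.1 in LINC00862. Of 14 hepatocyte and hepatoma markers tested, 11 were called higher and 2 lower, with summed FPKM of 200.5 to 294.5 in NC and 2060 to 2521 in LINC00862. Among all 16 of them, 9 had a mean below 0.1 FPKM in NC and 5 in LINC00862. ALB had 0, 0 and 7 counts in the NC libraries and 282 to 423 in LINC00862, AFP had 14 to 30 and 0, and GPC3 had 0 and 4 to 7. The fibrinogen genes went from 1.75 to 2.67 FPKM on average in NC to 550.4 (FGB), 626.7 (FGG) and 796.0 (FGA) in LINC00862, TF from 0.0369 to 15.5 and FOXA2 from 0.00706 to 6.22. KRT8 (84.5 and 62.2 FPKM) and KRT18 (153.4 and 218.9) made up most of the NC sum. In NC, ALB, TTR, HNF4A and GPC3 were thus at or near 0, and in LINC00862 AFP, HNF4A and GPC3 were. Blood cell markers summed to 2.23 to 2.74 FPKM in NC and 5.41 to 7.22 in LINC00862, and endothelial markers to 1.20 to 1.79 and 4.47 to 5.92, with 1 of 5 genes called higher in each list. That gene was CD14 among the blood cell markers, at 1.69 FPKM on average in NC and 5.59 in LINC00862. Among the endothelial markers it was CDH5, at 0.403 and 4.47. The other 4 genes of each list, PTPRC and PECAM1 among them, did not pass.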

How the data were processed

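Deposited values were 1 table of 35856 Ensembl genes with, for each of 6 libraries, the count of reads per gene and FPKM, both made by the authors. Per the labels, polyadenylated RNA was read from strand-marked libraries on build hg38, and the submitters' processing notes list cutadapt 1.9, HISAT2 2.0.4, UMI-tools, StringTie 1.3.4d, DESeq2 and edgeR without roles. Whether counting used the strand is not given in the sources used here. Exons of WWTR1, TEAD2 and YAP1 share 795, 319 and 628 bases with genes on the opposite strand in GENCODE 29 (WWTR1-AS1, CD37 and AP000942.2). WWTR1-AS1 had 16 to 17 counts in NC and 78 to 166 in LINC00862. Coordinates are those of the deposited table, which equal GENCODE 29 for WWTR1 and TEAD2 and differ in start or end for the other 7 genes.

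The fit over the whole table of counts used edgeR 4.0.16 under R 4.3.3 (filterByExpr, TMM, quasi-likelihood test, Benjamini-Hochberg adjustment at 0.05). The SE was derived from the test statistic, and 95% intervals from the t distribution of the fit. For single values the test was an exact permutation over libraries, two-sided. The alternatives were DESeq2 1.42.0, other scalings, no filter beyond 1 count, a replicate block, limma-trend (limma 3.58.1) on log2(FPKM + 1) and log2(FPKM + 0.1), a test against a fold change of 2, a false discovery rate of 0.01, each library left out, and CPM for the composition values. The fits were also run on simulated counts in which far fewer genes changed than were called here, so that run does not check scaling or error rates for these data. Libraries of a group differed by more than sampling noise, and intervals and floors (3 counts) cover counting error only. The network genes and the lists were chosen with earlier results of these data known. The rule for named genes was the members, the 3 largest called rises and falls of each list (for marker lists only some of these are printed), and LINC00862, CCN1, CCN2, AXL, LATS1, LATS2, NF2, FOSL1 and VGLL4. MOB1A, WWC1, PTPN14, SAV1, STK3, FOSB, JUND, ALB, TTR, TF, FGA, FGB, FGG, HNF4A, KRT7, KRT8, KRT18, VIM, COL1A2, GPC3 and the uncalled targets were added after their values were seen. Over the tested genes the log2 fold change had a median of 0.11 under TMM, 0.32 under upper quartile scaling and -0.05 when only library size was used. Relative to 0.11, the change was -1.24 for YAP1, -0.93 for WWTR1 and 0.01 for TEAD2. The search for the LATS consensus in proteins was not run. Python 3.11.15 and pandas 2.3.3 made tables and figures.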

Additional observations from a re-analysis of the deposited data

How the results depend on the processing

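Of the 9 genes, the 8 called lower kept their direction in each of 14 alternative fits and their adjusted p under 0.05 in all of them, except that YAP1 and WWTR1 lost the call against a fold change of 2. Under that test 6 network genes and 16 YAP and TAZ targets were called lower, and otherwise 8 network genes and 17 to 19 targets. Over all genes, 3204 of 20741 were called lower under that test. In the other fits, of 20741 to 35856 genes each, 5291 (upper quartile scaling) to 6996 (limma-trend with a pseudocount of 0.1) were called lower. TEAD2 was called in none of the 14. Its sign turned under library size only (-0.036), a fit that differs from the main one in scaling alone. It also turned in limma-trend with a pseudocount of 1 (-0.045) or 0.1 (-0.056), where the cause was not tested. In these 3 fits the median log2 fold change over the tested genes was -0.051, -0.013 and -0.033, beside 0.11 in the main fit. VGLL3 ranged from -7.52 to -0.82, the last in limma-trend with a pseudocount of 1, which exceeds its FPKM in 5 of 6 libraries. The difference in the TEAD4 share, 0.017 percentage points, ranged from -3.59 to 3.56 over the fits that each left out 1 library, and was 3.86 by CPM.

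Shared replicate numbers showed no pairing, since libraries of the same number, each taken relative to its group mean, correlated at -0.05, -0.03 and -0.01 across genes. With a replicate block, 8 network genes and 17 targets were called lower, beside 5556 of all 20741 tested genes. Depth limits VGLL3, VGLL2 and AMOT, whose LINC00862 libraries hold 0 to 14 counts: without LINC00862 library 3 VGLL2 moved from -4.67 to -9.46, and without LINC00862 library 1 AMOT moved from -5.73 to -10.49, both then against a group at 0, where the fitted value depends on the prior count and is no bound.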
